A study of Mus musculus with 16 samples.

Results

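AMPK-KO and WT C2C12 cells were compared after 8 days of differentiation (d8), over every gene of the deposited count table that passed a filter on low counts. C2C12 is a mouse myoblast line, derived from adult muscle, that leaves the cell cycle and fuses into myotubes once it is confluent and serum is lowered. The series holds 16 RNA-seq libraries, and 4 of them, 2 WT and 2 AMPK-KO, make up the d8 comparison. Another 4 libraries of the same genotypes before differentiation (d0) entered the same model and are set beside the d8 values at the end. Of 49585 genes in the table, 14329 were tested.

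The WT group was C2C12 cells with no edit named in the labels. The AMPK-KO group lacked both catalytic subunits of AMP-activated protein kinase (AMPK), α1 (*Prkaa1*) and α2 (*Prkaa2*), which were edited with CRISPR/Cas9. For *Prkaa1* the cells received a knockout plasmid together with a homology-directed repair plasmid, and for *Prkaa2* a published guide RNA against exon 4. Puromycin-resistant clones were then grown out and picked, and differentiation was run in low equine serum. Each AMPK-KO library therefore stands for cells of clonal origin. A figure legend of the study ascribes its sequencing tracks to independent AMPK-KO lines, but the labels tie no library to a line and do not say whether the replicates of a group were separate cultures. Differences between the genotypes can thus hold differences between clones, and p-values measure only the spread between these libraries. The WT libraries held 17883417 (replicate 1) and 21396328 counts (replicate 2) at d8, and the AMPK-KO libraries 24663079 and 20925176. At these depths, 3 counts, below which a gene is treated here as not detected, correspond to 0.122 to 0.165 CPM (counts scaled to a library of 1000000 counts).

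AMPK is a heterotrimer of a catalytic α subunit with β and γ subunits, and it is switched on when ATP falls and AMP rises. It restrains anabolic growth and promotes glucose uptake, fatty acid oxidation and autophagy. Myogenesis runs from *Pax7*- and *Myf5*-expressing precursors through *Myod1* and *Myog* to fused myotubes that make sarcomeres, calcium stores and synaptic receptors. Interferon-stimulated genes, which enter the results below, are switched on together when a cell senses interferon or foreign nucleic acid.

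The edited genes were read first. The *Prkaa2* guide is shown because its target could be placed on the genome from the sources used here. It lies in coding exon 4 of *Prkaa2* on chromosome 4 of GRCm38 (chr4:105051266-105051285), on the strand of the transcript, which is the minus strand of the chromosome. The 20 bases of the guide are in lower case, 5′ to 3′, and the protospacer-adjacent motif that follows it in the genome is in capitals.
*Prkaa2* guide: acaggcatatggttgtccatAGG

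At d8, *Prkaa2* had 113 and 216 counts in the WT libraries and 31 and 17 in the AMPK-KO libraries. Both AMPK-KO values lay under both WT values (log2 fold change −2.96, standard error (SE) 0.471, adjusted p = 0.019 from edgeR). *Prkaa1* had 2290 and 2661 counts in WT against 2043 and 1698 in AMPK-KO cells, which after scaling to library size was 126 and 125 CPM against 83.3 and 82.5 CPM. The fall of 0.60 on the log2 scale was the smallest of any gene called lower (SE 0.126, adjusted p = 0.0419 from edgeR). It was not called when the d8 libraries were fitted alone (adjusted p = 0.0578 from edgeR) or with any d8 library left out, and with each of the 8 libraries left out in turn the adjusted p ranged from 0.0401 to 0.234. The counts cover whole genes and do not show the edited bases. Of the 12 AMPK subunits and upstream kinases these were the only members called, and the median change over the list was −0.24, against 0.04 over all genes tested.

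The labelled stage was checked against markers. All 11 myotube markers, among them *Myog*, *Mymk*, *Myh3*, *Acta1* and *Ckm*, were above 3 counts in each of the 4 d8 libraries. Their summed level was 7000 and 10777 CPM in the WT libraries, 2251 CPM in AMPK-KO replicate 1 and 12558 CPM in AMPK-KO replicate 2. By this sum, replicate 1 of the AMPK-KO cells was under both WT libraries and replicate 2 above both. *Acta1* had the most counts of these markers in every d8 library, and single markers went both ways in replicate 2. On the log2 scale against the WT mean, *Acta1* stood there at 0.96 and *Ckm* at 2.9, but *Myog* at −0.79 and *Myh1* at −1.49. Before differentiation the same sum was 214 and 148 CPM in WT against 24.6 and 15.8 CPM in AMPK-KO cells, so both AMPK-KO libraries at d8 were far above their d0 levels. Of the 5 myoblast markers, *Pax7* was the one at or under 3 counts in AMPK-KO cells, and the others (*Myf5*, *Myod1*, *Cdh15*, *Des*) were present in every library. Since these are bulk samples, fewer myotubes and less RNA of a gene per myotube cannot be told apart.

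Markers of cells that the culture should lack were low. Endothelial markers summed to 4.63 and 13.2 CPM in WT against 5.10 and 7.63 CPM in AMPK-KO cells, with *Tie1*, *Emcn* and *Cldn5* at 0 in all 4 libraries. Macrophage and leukocyte markers summed to 12.6 and 9.76 CPM in WT against 19.8 and 27.2 CPM in AMPK-KO cells. Most of that was *Cd14*, and *Adgre1*, *Tyrobp* and *Cd3e* were at 0. Epithelial markers summed to 7.49 and 5.54 CPM in WT against 4.0 and 5.98 CPM in AMPK-KO cells, with *Krt5* at 0. The members tested went both ways. Over both libraries of a group, *Krt8* had 10 counts in WT against 185 in AMPK-KO cells. *Krt14* had 163 against 7 and *Cdh1* 57 against 14, and none of these 3 was called. The summed levels of these lists were small in every library. Genes usually read as neuronal or fibroblastic were not low in WT cells, and their summed levels were lower in both AMPK-KO libraries. The neuronal and glial list summed to 160.5 and 123 CPM in WT against 4.65 and 7.29 CPM in AMPK-KO cells. Most of the sum in WT was *Tubb3*, while *Rbfox3*, *Snap25* and *Sox10* were at 0. The fibroblast list summed to 1111 and 940 CPM in WT against 715 and 436 CPM in AMPK-KO cells, with *Thy1* and *Tcf21* at 0. Its most abundant gene, *Pdgfrb*, overlapped between the groups, at 452 and 371 CPM in WT against 431 and 242 CPM in AMPK-KO cells. Of the 6 neuronal and glial genes tested 3 were called lower, and of the 9 fibroblast genes 5, with none higher in either list. Their part in the results below was not tested.

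Most genes called between AMPK-KO and WT cells at d8 were lower in AMPK-KO cells. A set of 571 genes was lower in AMPK-KO cells (3.98% of those tested) and 195 were higher (1.36%), 766 in all (5.35%), at an adjusted p under 0.05 from edgeR, which is what "called" means here. With the replicate number as a block, 815 were lower and 329 higher. The counts of called members given for gene lists below stand against these shares of 3.98% and 1.36%. Without regard to calls there was no such excess of falls, since 6732 of the genes tested had a fitted change below 0 and 7597 above it. In 205 of the genes called lower, both AMPK-KO libraries held 3 counts or fewer, and in 96 of these both held 0. Of these 205 genes, 175 were at 3 counts or fewer in both AMPK-KO libraries at d0 as well. The opposite was rarer: 13 genes called higher had 3 counts or fewer in both WT libraries. Protein-coding genes made up 556 of the genes called lower and 178 of those called higher. In all 766 called genes, both AMPK-KO libraries lay on the same side of both WT libraries, a separation that 57.9% of all genes tested showed (3998 lower and 4293 higher).

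The AMPK-KO libraries also differed strongly from each other. Among genes with at least 50 counts in 1 of the d8 libraries, AMPK-KO replicate 1 was at least 4-fold below the WT mean for 702 genes (4.90% of those tested) and above it for 230 (1.61%). For AMPK-KO replicate 2 the numbers were 633 (4.42%) and 126 (0.879%). Both libraries were 4-fold below WT for 507 genes, of which 341 were called, and 4-fold above for 93, of which 60 were called. A gene is said below to be apart in 1 library where that library was at least 4-fold from WT and the other less than 2-fold from it. By this rule 90 genes were low and 72 high in replicate 1 alone, and 36 were low and 19 high in replicate 2 alone. Of all these, *Ifi35* was the one that was called. More than 4-fold apart between the AMPK-KO libraries were 302 genes, against 96 between the WT libraries, and the standard deviation of the log2 difference was 0.791 and 0.569. Such a spread was not particular to this pair: at d0, 270 genes were that far apart between the WT libraries (standard deviation 0.817) and 105 between the AMPK-KO libraries (0.645).

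**Figure D1:**
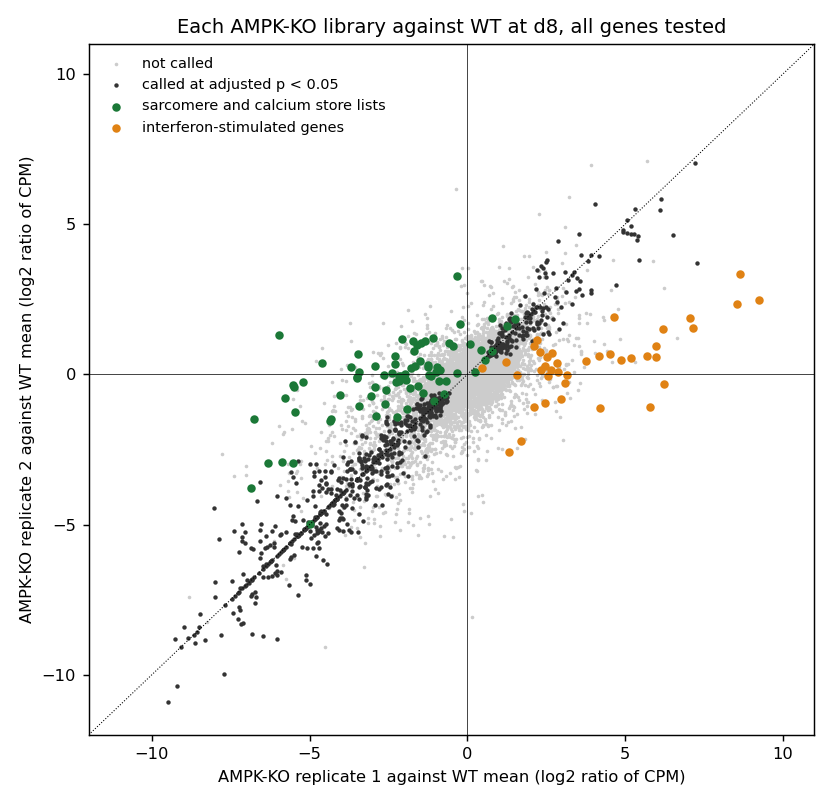
Log2 ratio of CPM of AMPK-KO replicate 1 (x axis) and AMPK-KO replicate 2 (y axis) to the WT mean at d8, with 1 point for each of the 14329 genes tested. Called genes (black) follow the diagonal, on which the libraries agree, while sarcomere and calcium store genes (green) lie to the left of it and interferon-stimulated genes (orange) to the right of it.

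The calls rested on few libraries. With WT replicate 1 left out 99 genes remained called lower and 9 higher among those called with all libraries, and with WT replicate 2 left out 100 and 7. Without AMPK-KO replicate 1 the numbers were 155 and 45, and without AMPK-KO replicate 2 they were 280 and 88. In these fits the lone library of a group is taken to vary like the other groups. No gene changed sign among those that stayed called. Of 75 called genes named here, which do not include *Cdkn2d*, all kept their sign and 20 stayed called without each d8 library in turn. These were *Pax7*, *Cdh11*, *Rbm24*, *Tspan7*, *Serping1*, *Ly6c1*, *Ly6c2*, *Adamtsl1*, *Vldlr*, *Tubb3*, *Map2*, *L1cam*, *Gpx3*, *Mmp3*, *Slc16a3*, *Colq*, *Kcnj12*, *Col4a5*, *Col4a6* and *Sh2d1b1*. The others of these 75 genes lost the call without at least 1 of the d8 libraries.

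Genes with the largest falls were abundant in both WT libraries and at or near 0 in both AMPK-KO libraries. They encode adhesion molecules, secreted inhibitors of bone morphogenetic proteins (BMP), a complement inhibitor, matrix proteases and membrane receptors. *Cdh11* (ENSMUSG00000031673.6, chromosome 8, 102632095 to 102785642, minus strand), a cadherin of mesenchymal cells, had 1717 and 3794 counts in WT against 3 and 0 in AMPK-KO cells. The ratio of WT to AMPK-KO was 2100 with a 95% exact counting interval of 718 to 10200 (adjusted p = 0.0047 from edgeR). Such intervals cover counting error alone. *Rbm24*, an RNA-binding regulator of muscle splicing, had 1606 and 2874 counts in WT against 2 and 3 in AMPK-KO cells, a ratio of 1020 (interval 438 to 3150). *Tspan7*, a tetraspanin, had 2063 and 2706 counts against 5 and 3, a ratio of 681 (interval 345 to 1580). In each case only a few reads were left in AMPK-KO cells. *Setbp1* and *Adgrd1*, an adhesion G protein-coupled receptor, had no read in either AMPK-KO library. With 1035 and 1017 counts in WT, *Setbp1* was at least 391-fold lower, taking AMPK-KO cells at 3 counts per library, and *Adgrd1*, with 813 and 754 counts, was at least 299-fold lower.

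**Figure D2:**
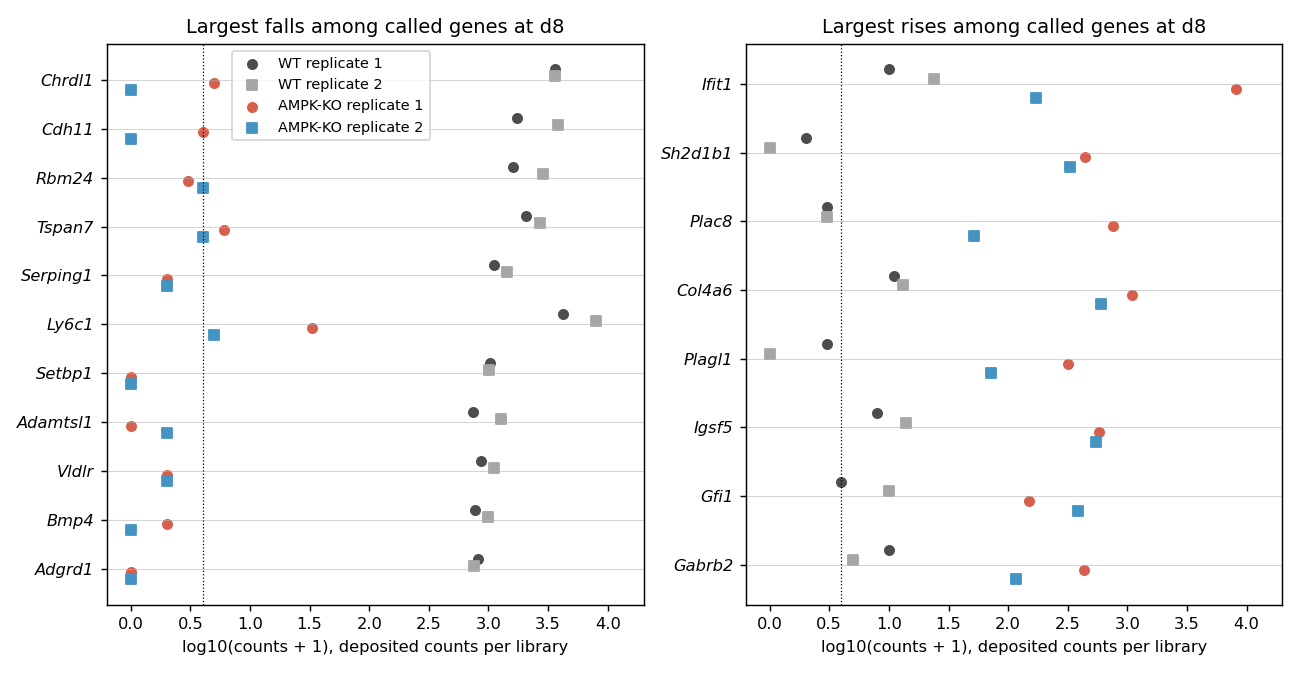
Deposited counts per library at d8, as log10(counts + 1), for 11 of the 12 largest falls (left) and 8 of the 12 largest rises (right) among called protein-coding genes, those that are named here. Circles are replicate 1 and squares replicate 2, and the dotted line marks 3 counts. For the falls both AMPK-KO libraries lie far to the left of both WT libraries, with *Ly6c1* at 32 counts in replicate 1 and 4 in replicate 2. For *Ifit1* and *Plac8* the AMPK-KO libraries lie more than a unit apart.

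Among ligands and inhibitors of the BMP pathway, expression was lost on both sides. BMPs are secreted growth factors that hold back myogenic differentiation, and noggin and chordin-like 1 bind them outside the cell. *Bmp4*, a ligand, had 771 and 990 counts in WT against 1 and 0 in AMPK-KO cells (ratio 2010, interval 361 to 79500, adjusted p = 0.0223 from edgeR). *Chrdl1*, which encodes chordin-like 1, had 3642 and 3640 counts in WT against 4 and 0 in AMPK-KO cells (ratio 2080, interval 812 to 7640, adjusted p = 0.0304). *Nog*, which encodes noggin, had 156 and 75 counts in WT and none in AMPK-KO cells, at least 45.2-fold lower (adjusted p = 0.0173). The groups were far apart for each of these genes. The receptor gene *Bmpr1b* fell from 124 and 91 counts to 8 and 1 (ratio 27.3, interval 14.1 to 60.5). Over the list of TGF-β, BMP and ID genes, 5 of 22 tested were called lower and none higher, with a median change of −0.97. At d0 the WT libraries themselves differed for *Bmp4* (1455 and 81 counts) and *Chrdl1* (484 and 8 counts), while both AMPK-KO libraries held 7 counts or fewer.

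Secreted modulators of Wnt signalling moved both ways. *Sfrp1*, a secreted Wnt inhibitor, had 380 and 245 counts in WT against 1 and 0 in AMPK-KO cells (ratio 714, interval 128 to 28200, adjusted p = 0.0254 from edgeR). *Dkk3*, of the dickkopf family, had 363 and 666 counts against 2 and 10, and *Ror2*, a Wnt receptor, 76 and 88 against 1 and 0. *Rspo1*, a secreted protein that raises Wnt signalling, went the other way, with 0 and 1 counts in WT against 87 and 67 in AMPK-KO cells (ratio 135, interval 23.8 to 5360, adjusted p = 0.0153). *Lef1*, a transcription factor of the pathway, had 284 and 191 counts in WT against 1075 and 612 in AMPK-KO cells (log2 fold change 1.58, adjusted p = 0.0377 from edgeR). Neither gene overlapped between the groups. Of 29 Wnt pathway genes tested, 3 were called lower and these 2 higher, and the median was −1.12.

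Extracellular matrix genes changed member by member. *Mmp2* (ENSMUSG00000031740.8, chromosome 8, 92827291 to 92853420, plus strand), a gelatinase, had 37096 and 27983 counts in WT against 269 and 146 in AMPK-KO cells. Both AMPK-KO libraries lay far below WT (log2 fold change −7.53, SE 1.05, adjusted p = 0.0134 from edgeR). *Mmp3*, which encodes stromelysin-1, fell from 714 and 333 counts to 7 and 3, and *Timp3*, an inhibitor of these proteases, from 18502 and 20161 counts to 2448 and 677 (log2 fold change −3.89, adjusted p = 0.0306). *Col1a1*, a chain of fibrillar collagen I, had 8152 and 30872 counts in WT against 865 and 1544 in AMPK-KO cells (log2 fold change −4.11, SE 0.691, adjusted p = 0.0223). Its partner chain *Col1a2* had 26328 and 50443 counts in WT against 42339 and 26548 in AMPK-KO cells, and the groups overlapped (adjusted p = 0.574 from edgeR). *Col3a1* had 121118 and 190480 counts against 265589 and 157932 and overlapped as well. Laminin chains went in opposite directions: *Lama4* had 416 and 564 counts in WT against 0 and 1 in AMPK-KO cells, and *Lama2*, the α chain of the muscle basement membrane, 1628 and 1853 counts in WT against 4463 and 3243 in AMPK-KO cells (log2 fold change 0.94, SE 0.14, adjusted p = 0.016). Of 38 matrix genes outside the collagens, 6 were called lower and 1 higher, with a median of −0.48. Of 24 collagen chains, 2 were lower and 2 higher, against 3.98% and 1.36% of all genes, with a median of −1.12.

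The collagens that rose were the paired genes *Col4a5* and *Col4a6*, basement membrane chains whose genes lie head to head on the X chromosome. *Col4a6* (141165403 to 141474076, minus strand) had 10 and 12 counts in WT against 1090 and 602 in AMPK-KO cells. *Col4a5* (141475385 to 141689234, plus strand) showed 747 and 971 counts in WT against 4378 and 4006 in AMPK-KO cells. Every AMPK-KO library lay above both WT libraries for both genes. The log2 fold change was 6.03 for *Col4a6* (SE 0.585, adjusted p = 0.0047 from edgeR) and 2.11 for *Col4a5* (SE 0.182, adjusted p = 0.004). Both genes were also called higher at d0 (adjusted p = 0.0131 and 0.0086 from edgeR).

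A complement inhibitor and 2 of 5 Ly6 surface antigens tested were called lower. Of these 5 antigens, 3 were at least 4-fold below WT in both AMPK-KO libraries. *Serping1*, the inhibitor of the first complement component, had 1102 and 1432 counts in WT and 1 in each AMPK-KO library (ratio 1450, interval 400 to 12000, adjusted p = 0.0012 from edgeR). Both groups were tight, with no overlap. Of 11 complement genes tested, 2 were called lower and none higher, and the median was −0.04. Another 8 were not tested, and 3 of these had their highest counts in AMPK-KO replicate 1. *C3* was such a gene, with 2 and 8 counts in WT against 1118 and 2 in AMPK-KO cells. *Ly6c1* had 4221 and 7994 counts in WT against 32 and 4 in AMPK-KO cells (log2 fold change −8.60, SE 0.697, adjusted p = 0.004), and *Ly6c2* 576 and 921 against 0 in both, at least 280-fold lower. *Ly6a*, which encodes Sca-1, had 7134 and 10921 counts against 482 and 15 and just missed the threshold (adjusted p = 0.0532, or 0.0324 with the replicate number as a block). These genes lie close together on chromosome 15 and are closely alike, so reads could have been split or dropped in counting. *Ly6e*, another member, had 2505 and 2078 counts in WT against 9590 and 2057 in AMPK-KO cells, high in replicate 1 and within the WT range in replicate 2.

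Chemokines, cytokines and their receptors were lower where they were called. *Cxcl14* had 246 and 623 counts in WT and none in AMPK-KO cells, at least 160-fold lower (adjusted p = 0.0247 from edgeR). *Lif*, a cytokine of the interleukin-6 family that acts on myoblasts, had 1129 and 652 counts against 193 and 65 (log2 fold change −3.07, SE 0.524, adjusted p = 0.0233). *Ackr3*, a scavenging receptor for the chemokine *Cxcl12*, had 1139 and 1877 counts against 306 and 329, and *Cxcl12* itself 3810 and 4963 against 557 and 776. The groups did not overlap for any of these. *Ackr3* was called (log2 fold change −2.41, adjusted p = 0.0258) and *Cxcl12* was not (−2.87, adjusted p = 0.111). *Tgfb2* was called as well (−1.82, adjusted p = 0.0413). Of 22 genes of this list tested, 4 were lower and none higher, with a median of −0.85. The AMPK-KO libraries differed here, with a median log2 ratio to WT of −0.14 in replicate 1 and −1.28 in replicate 2. At least 4-fold below WT were 8 members in replicate 1 and 9 in replicate 2. Over all genes tested, with no minimum of counts, these shares were 6.93% and 6.73%. At least 4-fold above WT were 3 members in replicate 1 and none in replicate 2, against 2.12% and 1.35% of all genes. These 3 were picked after their values were seen, and none was called. The chemokine *Ccl2* had 122 and 58 counts in WT against 703 and 66 in AMPK-KO cells, *Cxcl1* 56 and 21 against 307 and 18, and *Ccl9* 27 and 30 against 310 and 70. The filter on low counts asks for reads in at least 2 libraries, so members read in 1 library alone were not tested, such as *Cxcl10*, with 3 and 3 counts in WT against 233 and 0 in AMPK-KO cells.

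Genes best known from neurons and from progenitor surfaces were expressed in WT cells and low in AMPK-KO cells. *Tubb3*, a β-tubulin best known from neurons, had 1746 and 1351 counts in WT against 25 and 31 in AMPK-KO cells (log2 fold change −5.99, SE 0.436, adjusted p = 0.0033 from edgeR). *Map2*, a microtubule-associated protein, had 727 and 844 counts against 2 and 0. *L1cam*, a neural adhesion molecule, had 671 and 779 against 7 and 9 (log2 fold change −6.66, SE 0.419, adjusted p = 0.0018). Each was low in both AMPK-KO libraries, at d0 too. *Cd34*, a surface protein of progenitor cells, had 742 and 1065 counts in WT against 100 and 50 in AMPK-KO cells (log2 fold change −3.79, SE 0.493, adjusted p = 0.0111). *Kcnj12*, an inward rectifier potassium channel, had 158 and 150 counts against 10 and 6, with little change at d0 (25 and 19 against 28 and 22). Of 12 potassium and chloride channels tested, 3 were called lower and none higher. Of 33 axon guidance and neural adhesion genes, 5 were lower and 3 higher, and the rises included *Sema5a*, from 1778 and 1789 counts to 9629 and 7873 (log2 fold change 2.09, SE 0.221, adjusted p = 0.0057).

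Some metabolic genes were among the falls. *Gpx3*, a secreted glutathione peroxidase, had 1759 and 1975 counts in WT against 15 and 38 in AMPK-KO cells (log2 fold change −6.29, SE 0.693, adjusted p = 0.0063 from edgeR). *Slc16a3*, the lactate exporter MCT4, had 433 and 565 counts against 35 and 17 (log2 fold change −4.46, SE 0.319, adjusted p = 0.0033). Both AMPK-KO libraries were low for each gene. Of 25 genes of glycolysis and glucose uptake, 3 were lower, namely *Slc16a3*, *Pfkp* and *Aldoc*, against 3.98% of all genes, and the median was −0.21. *Ftl1*, the ferritin light chain, rose from 6793 and 6366 counts to 27598 and 17207 (log2 fold change 1.54, SE 0.22, adjusted p = 0.014). Of 29 antioxidant and NRF2 target genes, *Gpx3* was called lower and *Ftl1* higher, against 3.98% and 1.36% of all genes, with a median of 0.31.

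The largest rises with agreement between both AMPK-KO libraries were of genes that WT cells hardly expressed. *Sh2d1b1* (ENSMUSG00000102418.1, chromosome 1, 170277320 to 170286769, plus strand), an SH2 adaptor known from natural killer cells, had 1 and 0 counts in WT against 440 and 327 in AMPK-KO cells. The ratio was 671 (interval 120 to 26500, adjusted p = 0.004 from edgeR), and the gene was higher at d0 too (10 and 10 counts against 415 and 962). *Gabrb2*, a subunit of the GABA-A receptor of neurons, had 9 and 4 counts in WT against 435 and 116 in AMPK-KO cells (ratio 37.1, interval 21.5 to 70.1). All AMPK-KO libraries exceeded all WT libraries. *Gfi1*, a transcriptional repressor of blood cell development, had 3 and 9 counts in WT against 148 and 386 in AMPK-KO cells, and *Igsf5*, a junctional adhesion molecule, 7 and 13 against 573 and 540. *Igsf5* varied widely at d0, with 48 and 473 counts in WT.

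Binding proteins of insulin-like growth factors (IGF) went in opposite directions. *Igfbp5* (ENSMUSG00000026185.8, chromosome 1, 72857932 to 72874884, minus strand), which is induced in differentiating myoblasts, had 57624 and 65044 counts in WT against 269395 and 238317 in AMPK-KO cells. Both AMPK-KO libraries were well above both WT libraries (log2 fold change 1.86, SE 0.244, adjusted p = 0.0113 from edgeR). At d0 it did not stand apart (45128 and 32034 counts in WT, 28197 and 43501 in AMPK-KO cells). *Igfbp4* and *Igfbp3* moved the other way, from 2212 and 4432 counts to 112 and 178 (log2 fold change −4.65, adjusted p = 0.0305) and from 155 and 123 counts to 5 and 0. *Igf2*, the ligand, had 633 and 1124 counts in WT against 3673 and 2856 in AMPK-KO cells and was not called (log2 fold change 1.72, adjusted p = 0.242). *Igf2r*, the receptor that clears it, was called, with 1281 and 1485 counts against 3728 and 2881 (log2 fold change 1.06, adjusted p = 0.0372). Of 15 genes of the IGF list, 2 were called lower and 3 higher, and the list summed to 7126 and 7765 CPM in WT against 19320 and 22580 CPM in AMPK-KO cells, chiefly through *Igfbp5* and *H19*.

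*H19*, an imprinted long noncoding RNA beside *Igf2* on chromosome 7 that accumulates in differentiating muscle, had 44233 and 66716 counts in WT against 172054 and 195460 in AMPK-KO cells. Both AMPK-KO libraries were above both WT libraries, at d0 as at d8 (log2 fold change 1.57 at d8, SE 0.264, adjusted p = 0.0223 from edgeR). Of 22 imprinted genes tested, 4 were called higher and 2 lower, against 1.36% and 3.98% of all genes, and the median was −0.01. *Plagl1*, which encodes a zinc finger protein that restrains growth, had 2 and 0 counts in WT against 318 and 71 in AMPK-KO cells (ratio 170, interval 46.8 to 1410). *Peg10*, derived from a retrotransposon, had 318 and 372 counts against 3205 and 1032 (log2 fold change 2.37, SE 0.453, adjusted p = 0.0324). *Peg3*, a zinc finger gene, fell from 4684 and 6333 counts to 2536 and 2633 (log2 fold change −1.26, SE 0.278, adjusted p = 0.0483). The direction thus differed between imprinted genes, and *Plagl1* and *Peg10* were higher in replicate 1 than in replicate 2.

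Most regulators of myogenesis were present in AMPK-KO cells at d8, and 3 of 17 tested, *Pax7*, *Mef2c* and *Msc*, were at least 4-fold below WT in both AMPK-KO libraries. *Pax7*, the transcription factor of muscle stem cells, had 138 and 177 counts in WT against 0 and 2 in AMPK-KO cells (ratio 180, interval 49.4 to 1490, adjusted p = 0.0063 from edgeR), and it was the 1 gene called among the 17. *Mef2c*, which drives late muscle genes together with *Myog*, had 2330 and 5554 counts in WT against 24 and 362 in AMPK-KO cells. It was low in both AMPK-KO libraries, and these were themselves more than 4-fold apart (log2 ratio to WT −7.41 in replicate 1 and −3.37 in replicate 2, fitted log2 fold change −4.40, SE 1.13, adjusted p = 0.0749 from edgeR). *Msc*, the repressor musculin, had 50 and 119 counts in WT against 6 and 16 in AMPK-KO cells and was not called (log2 ratio −3.56 and −2.20, adjusted p = 0.0817). *Myod1* stood at −1.40 in replicate 1 and −0.41 in replicate 2, and *Myog* at −2.37 and −0.79, and neither was called. *Myf5* had 659 and 699 counts in WT against 1130 and 1177 in AMPK-KO cells, and *Mef2a* 5486 and 7030 against 6818 and 6753. Neither was called. With the replicate number as a block, *Mef2c* (adjusted p = 0.0496 from edgeR), *Msc* (0.014) and *Myod1* (0.0488) were called lower as well. The median over the 17 regulators was −0.11, or −0.10 in replicate 1 and −0.21 in replicate 2. *Myf6* was not tested, with 1 and 10 counts in WT against 3 and 4 in AMPK-KO cells.

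Genes of myoblast fusion were split. *Mymk*, the fusogen myomaker, had 7549 and 11457 counts in WT against 2136 and 8195 in AMPK-KO cells, which put replicate 1 at −2.44 and replicate 2 at −0.25 on the log2 scale. *Mymx*, its partner myomixer, had 883 and 1236 counts against 312 and 857, at −2.05 and −0.35. For both genes, replicate 2 was close to the WT range and replicate 1 well below it, and neither gene was called. *Cav3*, the muscle caveolin, was low in both libraries, with 495 and 829 counts in WT against 1 and 13 in AMPK-KO cells (ratio 108, interval 64.2 to 198, adjusted p = 0.0128 from edgeR). *Myof*, a membrane repair protein, fell from 7390 and 6874 counts to 4924 and 3194 (log2 fold change −1.04, SE 0.212, adjusted p = 0.0392). *Dock1*, which activates Rac during fusion, rose from 731 and 828 counts to 1551 and 1323 (log2 fold change 0.69, SE 0.145, adjusted p = 0.042). Of 21 fusion genes tested, 3 were called lower, counting *Cdh11*, and 1 higher, with a median of −0.83.

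Sarcomere genes separated the AMPK-KO libraries more than the genotypes. Of 21 sarcomeric myosin heavy and light chains tested, 13 were at least 4-fold below WT in AMPK-KO replicate 1 and 2 in replicate 2, against 6.93% and 6.73% of all genes tested with no minimum of counts. None was called. Their median log2 ratio to WT was −2.91 in replicate 1 and −0.27 in replicate 2. *Myh1*, an adult fast heavy chain, had 10956 and 35397 counts in WT against 224 and 7314 in AMPK-KO cells. *Myh3*, the embryonic heavy chain, had 13548 and 23516 counts in WT against 2051 and 19614 in AMPK-KO cells. Replicate 2 lay within the WT range for *Myh3* and under it for *Myh1*, and replicate 1 lay far under it for both (log2 ratio −6.76 and −1.49 for *Myh1* in replicates 1 and 2, −3.44 and 0.07 for *Myh3*). *Myl2*, the slow regulatory light chain, had 401 and 2087 counts in WT against 16 and 2400 in AMPK-KO cells, so that the libraries of 1 genotype spanned the whole range. *Myh4*, the fast IIb heavy chain, was low in both AMPK-KO libraries, with 2342 and 6640 counts against 59 and 536, and was not called (log2 fold change −3.96, SE 1.01, adjusted p = 0.0733 from edgeR, or 0.0269 with the replicate block). The WT libraries also differed here, replicate 1 being under replicate 2 by a median of 0.83 on the log2 scale over the myosin list. Set against the WT library of the same number, *Myh1*, *Myh3* and *Myh4* were lower in both AMPK-KO libraries. *Myh3* stood at 83.7 against 746 CPM in replicate 1 and 953 against 1103 CPM in replicate 2. *Myl2* was lower in replicate 1 (0.653 against 22.1 CPM) and higher in replicate 2 (117 against 97.9 CPM).

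Thin filament, troponin and Z-disc genes followed the same pattern, with a median log2 ratio of −2.08 in replicate 1 and 0.01 in replicate 2 over 33 genes tested. *Actc1*, cardiac α-actin, had 3285 and 7254 counts in WT against 131 and 4028 in AMPK-KO cells (log2 ratio −5.51 and −0.34). *Acta1*, skeletal α-actin, had 54398 and 77420 counts against 26952 and 132288 (−1.59 and 0.96), low in replicate 1 and above both WT libraries in replicate 2. The 3 members called lower were low in both libraries. *Ankrd1*, a stretch-responsive titin-binding protein, had 34483 and 41558 counts in WT against 10113 and 14902 in AMPK-KO cells (log2 fold change −1.76, SE 0.354, adjusted p = 0.0372 from edgeR). *Xirp2*, an actin-binding Xin repeat protein, had 469 and 891 counts against 15 and 85 (log2 fold change −3.85, SE 0.814, adjusted p = 0.0428), and *Nebl*, the nebulin relative nebulette, 53 and 65 against none, at least 22.3-fold lower.

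Genes of the calcium store and of muscle energy supply repeated the split. Over 23 genes of excitation-contraction coupling the median was −1.08 in replicate 1 and −0.02 in replicate 2, and none was called. *Casq1*, the calcium buffer of the sarcoplasmic reticulum, had 358 and 1579 counts in WT against 36 and 1025 in AMPK-KO cells (log2 ratio −4.61 and 0.38). *Ckm*, muscle creatine kinase, had 565 and 2018 counts against 2237 and 8386. In CPM, replicate 1 was within the WT range and replicate 2 above it (log2 ratio 0.75 and 2.91), and the gene was not called (adjusted p = 0.205 from edgeR, or 0.0459 with the replicate block). The 20 muscle energy genes had a median of −0.80 in replicate 1 and 0.31 in replicate 2. The WT libraries were apart in the same direction, by less. Over the excitation-contraction list the median log2 ratio of replicate 1 to replicate 2 was −0.41 in WT and −1.48 in AMPK-KO cells. It was −0.53 and −1.13 over the muscle energy list, and −0.69 and −2.05 over the thin filament list. Of the 90 genes low in replicate 1 alone, 27 belonged to these 4 muscle lists, which hold 97 tested genes, and the 36 genes low in replicate 2 alone included none of them.

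**Figure D3:**
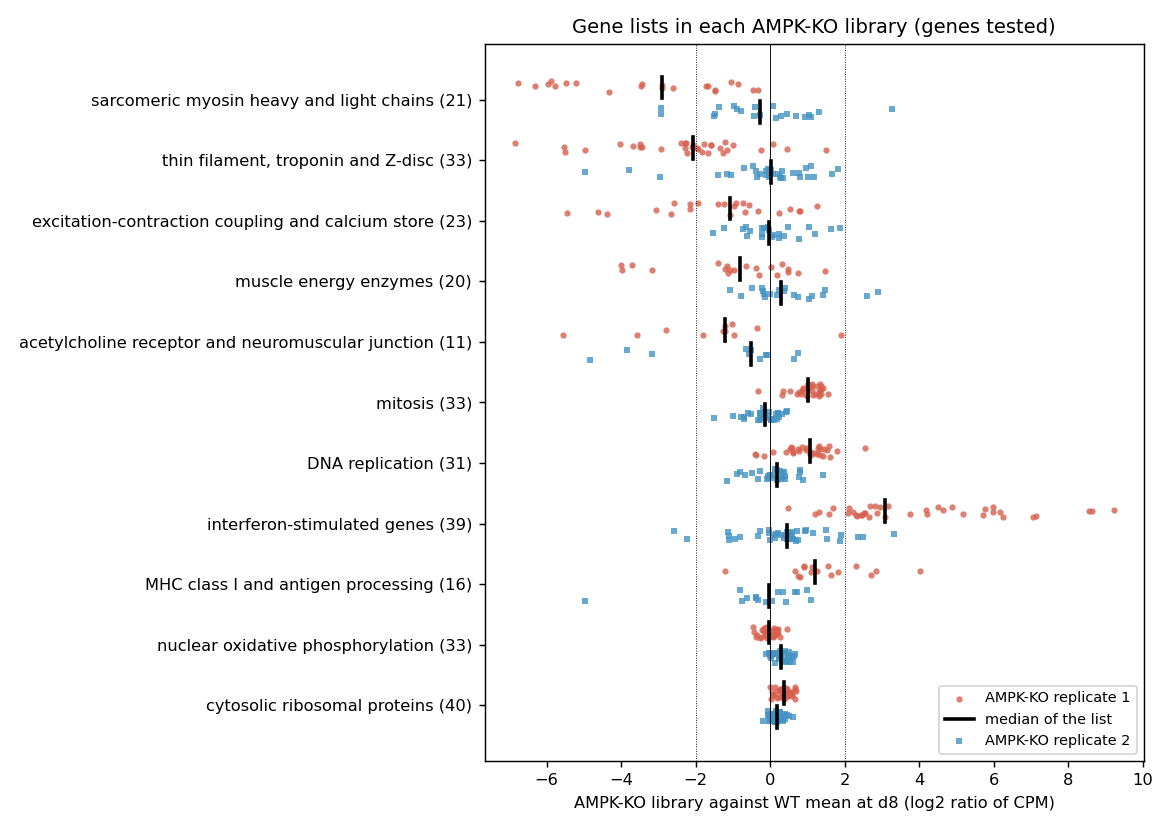
Log2 ratio of CPM of each AMPK-KO library to the WT mean at d8, for the tested members of 11 gene lists (number in brackets). Red circles are AMPK-KO replicate 1 and blue squares replicate 2, black bars are list medians and dotted lines mark 4-fold; the myosin medians are −2.91 and −0.27 and those of interferon-stimulated genes 3.09 and 0.45, while ribosomal protein genes lie close together.

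The promoters of *Casq1* and *Myh4* are shown because these genes belong to the calcium store and myosin lists and their start regions hold the sequence CAGCTG, an E-box of the kind that MYOD1 and myogenin bind. Each is the 250 bases before the RefSeq start on GRCm38.p6, 5′ to 3′ on the strand of the gene, with the E-box in capitals. It begins 195 bases before the start in *Casq1* (chr1:172219896-172220145, minus strand) and 67 bases before it in *Myh4* (chr11:67237562-67237811, plus strand).
*Casq1* promoter: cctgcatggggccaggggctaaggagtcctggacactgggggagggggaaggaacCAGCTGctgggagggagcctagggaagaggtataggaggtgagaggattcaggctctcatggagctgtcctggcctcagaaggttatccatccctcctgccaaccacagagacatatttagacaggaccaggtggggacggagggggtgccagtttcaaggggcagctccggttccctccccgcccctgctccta
*Myh4* promoter: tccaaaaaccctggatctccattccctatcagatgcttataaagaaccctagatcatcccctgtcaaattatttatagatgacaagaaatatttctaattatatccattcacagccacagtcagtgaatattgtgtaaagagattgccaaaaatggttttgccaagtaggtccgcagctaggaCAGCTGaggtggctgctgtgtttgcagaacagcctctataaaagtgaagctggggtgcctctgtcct

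CAGCTG, which reads the same on both strands, stood in 12.8% of all 27025 RefSeq promoters of this length. It was found in 5 of 19 myosin promoters (26.3%), in 9 of 23 promoters of the thin filament list (39.1%), in 5 of 13 of the excitation-contraction list (38.5%) and in 4 of 28 of interferon-stimulated genes (14.3%). These are matches of letters, not sites shown to be bound.

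At the neuromuscular junction, the acetylcholine receptor itself was not called. *Chrna1*, its α subunit, had 19695 and 25839 counts in WT against 13730 and 22154 in AMPK-KO cells, and *Chrng*, the embryonic γ subunit, 5504 and 9817 against 2649 and 13011. Replicate 1 was under the WT libraries for both genes, while replicate 2 was near them for *Chrna1* and above them for *Chrng*. *Dok7*, the activator of the receptor kinase MuSK, was lower in both libraries, with 759 and 491 counts against 108 and 43 (log2 fold change −3.31, SE 0.481, adjusted p = 0.0149 from edgeR). *Colq*, the collagen tail that anchors acetylcholinesterase, had 158 and 169 counts against 2 and 4 (ratio 62.3, interval 28.3 to 171, adjusted p = 0.0046). At d0 *Colq* was at 1 or 2 counts in every library. Its AMPK-KO change was not called as different between d8 and d0 (adjusted p = 0.876 from edgeR). *Dok7* and *Colq* were the 2 genes called of 11 tested.

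Interferon-stimulated genes were high in AMPK-KO replicate 1. Of 39 such genes tested, 34 were at least 4-fold above WT in replicate 1 and 3 in replicate 2, against 2.12% and 1.35% of all genes tested. The median log2 ratio was 3.09 and 0.45. All 39 were above the WT mean in replicate 1, and 12 of them were below it in replicate 2. Some members, such as *Ifi44* (1 and 3 counts in WT against 2802 and 20), passed the filter on low counts only through the AMPK-KO d8 libraries. *Usp18* (1 and 2 against 1569 and 16) was another. For such members a place above WT was in part fixed by the filter, so these counts only describe the list. Their summed level was 555 and 537 CPM in WT, 3922 CPM in AMPK-KO replicate 1 and 619 CPM in replicate 2. A further 9 members were too low to be tested, and each of them had more counts in AMPK-KO replicate 1 than in any other d8 library, such as *Oas2* with 2 and 0 counts in WT against 241 and 1. Despite a median fitted log2 change of 2.44, or 2.19 with genes at the detection limit set to their bounds, edgeR called 2 of the 39 tested.

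*Ifit1*, an RNA-binding antiviral effector, had 9 and 23 counts in WT against 8156 and 171 in AMPK-KO cells. It was above WT in both libraries, by 8.64 and 3.33 on the log2 scale (fitted log2 fold change 7.72, SE 1.70, adjusted p = 0.0477 from edgeR). Without AMPK-KO replicate 1 its fitted change was 3.40 (adjusted p = 0.0662), and with the d8 libraries alone it was not called either (adjusted p = 0.115), nor with the replicate number as a block (adjusted p = 0.0691). With each of the 8 libraries left out in turn its adjusted p ranged from 0.00282 to 0.246. *Isg15*, a ubiquitin-like protein conjugated to other proteins during the interferon response, had 20 and 44 counts in WT against 5220 and 119 in AMPK-KO cells (log2 ratio 7.05 and 1.87). *Irf7*, the transcription factor that amplifies the response, had 19 and 21 counts against 1982 and 63 (6.18 and 1.5). These genes thus lay above WT in both AMPK-KO libraries, by very different amounts. *Ifit3*, which shares near-identical stretches with *Ifit3b*, had 67 and 46 counts against 5414 and 46. *Ifi44* had 1 and 3 counts against 2802 and 20, and *Usp18*, which removes ISG15 from proteins, 1 and 2 against 1569 and 16 (adjusted p = 0.0763 from edgeR, or 0.0333 with the replicate block). *Ifi35*, the other gene called, had 276 and 306 counts against 1556 and 590 (log2 fold change 1.64, SE 0.351, adjusted p = 0.0439 from edgeR) and was not called with the d8 libraries alone (adjusted p = 0.103), its adjusted p with each library left out ranging from 0.00873 to 0.232. Before differentiation the list showed no such rise, with a median log2 ratio of −0.48 and 0.03 in the AMPK-KO libraries.

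**Figure D4:**
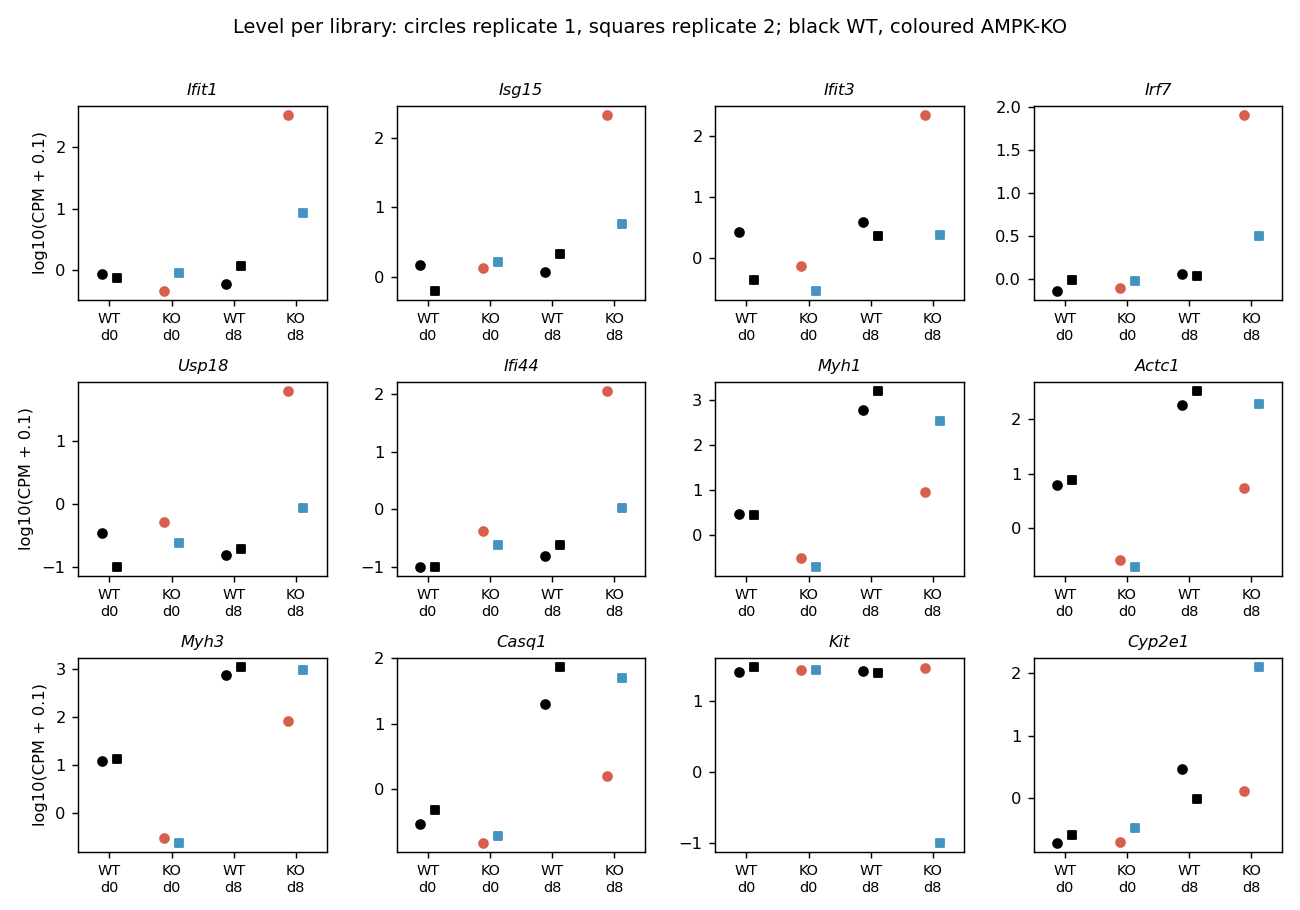
Level of 12 genes in each library as log10(CPM + 0.1), WT in black and AMPK-KO in red (replicate 1) and blue (replicate 2), circles for replicate 1 and squares for replicate 2, at d0 and d8. Interferon-stimulated genes stand out in AMPK-KO replicate 1 at d8, where the muscle genes *Myh1*, *Actc1*, *Myh3* and *Casq1* are low, and *Kit* is absent and *Cyp2e1* high in AMPK-KO replicate 2 at d8.

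The promoters of *Ifit1* and *Isg15* are printed because these genes carry the core of the interferon-stimulated response element, GAAA followed by any 2 bases and a second GAAA, to which interferon regulatory factors bind. The layout is as for *Casq1* and *Myh4*, with matches on either strand in capitals. In *Ifit1* (chr19:34640639-34640888, plus strand) 2 matches on the opposite strand begin 104 and 85 bases before the start. In *Isg15* (chr4:156200819-156201068, minus strand) 3 overlapping matches run from 78 to 57 bases before it.
*Ifit1* promoter: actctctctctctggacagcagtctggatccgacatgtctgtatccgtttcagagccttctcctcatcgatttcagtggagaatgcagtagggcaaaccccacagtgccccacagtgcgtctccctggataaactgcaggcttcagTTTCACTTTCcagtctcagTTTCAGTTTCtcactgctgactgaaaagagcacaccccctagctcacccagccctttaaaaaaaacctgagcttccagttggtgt
*Isg15* promoter: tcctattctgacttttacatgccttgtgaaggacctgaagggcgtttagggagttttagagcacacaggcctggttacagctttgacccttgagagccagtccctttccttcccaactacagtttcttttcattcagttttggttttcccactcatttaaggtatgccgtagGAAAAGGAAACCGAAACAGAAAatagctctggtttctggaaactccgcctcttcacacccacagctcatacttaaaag

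This core was present in 3.04% of all 27025 RefSeq promoters and in 2.48% of the 10444 promoters of genes tested. Among interferon-stimulated genes with a promoter in the table it was present in 13 of 28 (46.4%), among MHC class I and antigen processing genes in 3 of 13 (23.1%), and in none of the 19 myosin or 23 thin filament promoters. No match says only that these letters are not in this window.

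Sensors and signalling genes of the interferon system rose in both AMPK-KO libraries where they were called. *Ifngr1*, a chain of the interferon-γ receptor, had 904 and 1077 counts in WT against 2787 and 1933 in AMPK-KO cells (log2 fold change 1.05, SE 0.156, adjusted p = 0.0163 from edgeR). *Irf1*, an interferon regulatory factor, had 423 and 463 counts against 1151 and 916 (log2 fold change 1.02, SE 0.203, adjusted p = 0.0363). *Aim2*, a sensor of cytosolic DNA, had 56 and 89 counts against 460 and 325 (log2 fold change 2.25, SE 0.328, adjusted p = 0.0151), and was higher at d0 too (56 and 84 against 366 and 353). The AMPK-KO libraries agreed for each of the 3 genes. They were the members called of 24 tested, and the median of the list was 0.43 in replicate 1 and 0.22 in replicate 2. Over 16 MHC class I and antigen processing genes, none was called and the median was 1.20 in replicate 1 and −0.03 in replicate 2. *B2m*, the light chain of class I molecules, had 8058 and 8821 counts in WT against 19872 and 7096 in AMPK-KO cells. H2 genes share long stretches of sequence, so their separate counts are uncertain. Of the 72 genes high in replicate 1 alone, 26 belonged to these 3 lists of the interferon system, which hold 79 tested genes.

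Cell cycle genes were higher in AMPK-KO replicate 1. Over 33 mitosis genes the median log2 ratio was 1.03 in replicate 1 and −0.14 in replicate 2, and over 31 DNA replication genes 1.08 and 0.18. *Mki67*, a marker of cycling cells, had 367 and 476 counts in WT against 1535 and 409 in AMPK-KO cells, and *Top2a*, topoisomerase IIα, 825 and 943 against 2710 and 1067. For both genes replicate 1 was above the WT libraries and replicate 2 near them, while d0 counts were several-fold larger in every library (3984 to 5887 for *Mki67*). No mitosis gene was called. *Cdt1*, which licenses replication origins, was called higher, with 168 and 148 counts in WT against 1160 and 441 in AMPK-KO cells (log2 fold change 2.09, SE 0.456, adjusted p = 0.047 from edgeR). Among cyclins and their partners, *Cdk4* rose from 3068 and 3688 counts to 7914 and 6112 (log2 fold change 0.86, SE 0.181, adjusted p = 0.042), and *Ccnd3*, the D cyclin of myotubes, fell from 6385 and 7920 to 4428 and 2771 (log2 fold change −1.20, SE 0.186, adjusted p = 0.0176). *Cdkn1a*, the inhibitor p21 that accompanies cell cycle exit, had 14739 and 20663 counts against 11715 and 17687 and was not called (adjusted p = 0.421). *Cdkn2d*, another inhibitor, was called lower, with 304 and 340 counts in WT against 205 and 167 in AMPK-KO cells (log2 fold change −0.99, SE 0.196, adjusted p = 0.0363 from edgeR). Of 13 genes tested in the list of kinase inhibitors and D cyclins, 2 were called lower and 1 higher. *Fbxo32*, the muscle ubiquitin ligase atrogin-1, rose from 1807 and 2295 counts to 4920 and 4127 (log2 fold change 0.95, SE 0.203, adjusted p = 0.0434).

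AMPK-KO replicate 2 had its own outlying genes. *Kit*, the receptor of stem cell factor, had 485 and 542 counts in WT and 715 in AMPK-KO replicate 1, and none in AMPK-KO replicate 2. At d0 it was even over all libraries, with 541 and 569 counts in WT against 528 and 597 in AMPK-KO cells. *Cyp2e1*, a cytochrome P450, showed the opposite, with 52 and 19 counts in WT, 30 in AMPK-KO replicate 1 and 2566 in replicate 2. No other d8 library resembled replicate 2 for either gene. Picked after their values were seen, *Gpm6b*, a membrane proteolipid, had 509, 325, 368 and 8 counts in the same order, and *Lpl*, lipoprotein lipase, 541, 1083, 894 and 32. *Mybpc1*, slow myosin-binding protein C, was high, with 81 and 388 counts in WT, 175 in replicate 1 and 1813 in replicate 2. None of these genes was called.

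Several lists, some of them of systems tied to AMPK in textbooks, held no called gene. They are grouped here for that reason. Other such lists did hold calls: glycolysis and glucose uptake 3 of 25 lower, and FOXO and atrophy 1 of 19 higher. None of 29 autophagy and lysosome genes was called (median −0.08), nor of 25 genes of PGC-1, mitochondrial regulation and fatty acid oxidation (0.02), 27 of cholesterol and fatty acid synthesis (−0.02), 33 of nuclear oxidative phosphorylation (0.16), 40 cytosolic ribosomal protein genes (0.30) or 17 of the DNA methylation machinery (0.13). For the first of these groups the AMPK-KO libraries had medians of −0.17 and 0.06, and for ribosomal proteins 0.38 and 0.17. The shifts of the ribosomal protein genes were small and mostly upward: 38 of 40 had a fitted change above 0, and for 27 both AMPK-KO libraries lay above both WT libraries and for none below them. For nuclear oxidative phosphorylation these numbers were 24 of 33, 15 and none, and over all 14329 genes tested 7597, 4293 and 3998. The AMPK-KO libraries were apart for the oxidative phosphorylation list, with medians of −0.02 in replicate 1 and 0.30 in replicate 2, and replicate 1 was under replicate 2 for all 33 genes. The 11 mitochondrially encoded messenger RNAs had a median of −0.46 and none called. Of 28 genes of the integrated stress response, *Vldlr*, a lipoprotein and reelin receptor that the list holds as an induced target, was the 1 called, with 861 and 1106 counts in WT and 1 in each AMPK-KO library. On simulated counts with the same depths, edgeR recovered 60% of genes changed by 2 on the log2 scale and 6% of those changed by 1, so small shifts of single genes were mostly not detectable with these libraries.

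Set beside d0, many of the d8 losses were already there. At d0 edgeR called 405 genes lower (2.83%) and 100 higher (0.698%), of which 286 and 62 were called in the same direction at d8. That is 70.6% of the d0 falls and 50.1% of the d8 falls, and 62% of the d0 rises and 31.8% of the d8 rises. These comparisons have no library in common but share the estimate of spread, and at each day they share the same knockout background. At d0 *Mmp2* had 16966 and 2040 counts in WT against 50 and 31 in AMPK-KO cells, and *Cdh11* 1206 and 467 against 0 and 0. Other genes lost at d8 were low in WT cells at d0 and were not called there: *Cav3* had 1 and 3 counts in WT at d0 and *Cxcl14* 15 and 1. Whether the AMPK-KO change itself differed between d8 and d0 was tested as an interaction, and edgeR called 0 genes, with 729 at an unadjusted p under 0.05, while DESeq2 called 54 and limma-voom none. Leaving out AMPK-KO d8 replicate 1 gave 4 genes and leaving out replicate 2 gave 6.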

How the data were processed

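RNA-seq of ribosomal RNA-depleted total RNA was read from both ends. The authors trimmed the reads with Trim Galore (version 0.4.5 in the submitters' processing notes), aligned them to GRCm38 (mm10) with STAR 2.5.3a and assigned them to GENCODE M12 genes with featureCounts 1.5.3. The deposited values are raw counts per gene, whole numbers that the authors did not normalize. Strand use and the handling of multimapping reads are not given in the sources used here, so antisense, overlapping and near-identical genes are uncertain. Reads of clustered or paralogous genes such as *Ly6c1*, *Ly6c2*, *Ifit3* and *Ifit3b* may have been split. The table of TET2 cells was not used here.

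The 8 libraries entered 1 edgeR model (version 4.0.16, R 4.3.3) with 4 group means, TMM factors, filterByExpr by group and the quasi-likelihood test, and p-values were adjusted by Benjamini-Hochberg over 14329 genes. The biological coefficient of variation was 0.281. Standard errors are the fitted change divided by the root of the F statistic. For 1 gene, the smallest two-sided p of an exact permutation test is 0.33 here (2 libraries against 2). Each AMPK-KO library was also set against the mean log2 CPM of the WT libraries, with a prior count of 2 and no test. Folds against a group without counts were computed at 3 counts per library, and ratios resting on few counts carry an exact binomial interval at 95%. No interval covers variation between cultures.

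On simulated counts of the 14329 genes for the d8 comparison, with 50 genes at each size, 6% of changes of 1, 60% of 2, 82% of 3 and 90% of 4 on the log2 scale were recovered, and 7 unchanged genes were called. Replicates differed by more than sampling noise (chi-square per degree of freedom 46.4 between the WT and 107 between the AMPK-KO libraries at d8), so none was a copy.

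Gene names came from GENCODE M21 (49326 of 49585 identifiers), and promoters from RefSeq on GRCm38.p6, which held 28 of the 39 tested interferon-stimulated genes. Named genes were the edited and measured regulators, the 12 largest falls and 12 largest rises among called protein-coding genes whose higher group held 30 counts or more per library, the 10 genes each way that differed most between the AMPK-KO libraries with at least 200 counts, and of each list up to 4 members with the lowest p and up to 4 with the highest CPM. A rule for genes with a called interaction named none. A few genes that these rules name are not reported here. *Lef1*, *Timp3*, *Cxcl12*, *Igf2*, *Igf2r*, *Mymx*, *Ccl2*, *Ccl9*, *Cxcl1*, *Gpm6b*, *Lpl* and *Mybpc1* were chosen after their values were seen. The members, the gene lists and the tests were chosen with earlier results of these data known, so counts and medians over lists describe them and support nothing by themselves. Lists not described in the results were those of smooth muscle (1 of 13 tested lower), Notch (none of 12), HOX (2 of 24 lower), FOXO and atrophy (1 of 19 higher), p53 (1 of 24 lower), heat shock (1 of 17 lower), cadherins (3 of 12 lower) and adipogenic, osteogenic and chondrogenic regulators (1 of 15 lower).

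Alternatives were DESeq2 1.42.0, limma-voom with array weights (limma 3.58.1), DESeq2 size factors and upper-quartile scaling in edgeR, other filters on low counts, a fold minimum, a replicate block, the d8 libraries alone, a prior count of 5, each WT library alone as the reference, and each library left out.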

Additional observations from a re-analysis of the deposited data

How the results depend on the processing

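More genes were called lower than higher at d8 in every setting tried, while the number of calls varied. The 571 genes lower and 195 higher became 1073 and 496 with DESeq2, 889 and 386 with limma-voom, and 1670 and 833 without a filter on low counts. In that last fit edgeR estimated infinite prior degrees of freedom (3.18 with the filter), so no gene was judged by its own spread. DESeq2 called 563 of the 571 and 194 of the 195. With each library left out in turn, genes called lower ranged from 99 to 678 and genes called higher from 7 to 263, with the smallest numbers without a WT d8 library. Without AMPK-KO d8 replicate 1, 180 were lower and 53 higher, and without AMPK-KO d0 replicate 1 or 2 the genes higher were 105 and 118. The interaction with day, 0 genes in edgeR, gave 54 with DESeq2, 449 without a filter on low counts and 0 to 6 with each library left out.

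A replicate block raised the genes lower to 815 and the genes higher to 329. Replicate numbers were treated as not pairing the libraries, because the labels tie them to nothing shared and there are only 2 per group, although same-numbered libraries deviated together (correlation of deviations 0.324 between WT and AMPK-KO cells at d8, 0.119 to 0.324 over all pairs of groups). Under the block, *Ifit1* was the named gene that lost its call (adjusted p = 0.0691 from edgeR), and 7 named genes gained one, namely *Myod1* (0.0488), *Ckm* (0.0459), *Ly6a* (0.0324), *Mef2c* (0.0496), *Msc* (0.014), *Myh4* (0.0269) and *Usp18* (0.0333).

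The 4 d8 libraries alone kept 453 of the genes lower and 117 of those higher, and 16 named genes lost their call. Among named genes, none that was called changed sign. The following, none of them called, changed sign when a library was left out, and the range of their log2 fold change is given: *Myh3* −3.50 to 0.063, *Acta1* −1.63 to 0.97, *Des* −1.26 to 0.0087, *Pdgfrb* −0.75 to 0.032, *Col1a2* −0.63 to 0.072, *Col3a1* −0.0050 to 0.49, *Ly6e* −0.22 to 1.70, *Mef2a* −0.22 to 0.073 and *Myl2* −6.54 to 1.42. For *Casq1* it was −5.02 to 0.39, for *Ccl2* −0.54 to 2.57, for *Cxcl1* −1.19 to 2.78, for *Chrng* −1.85 to 0.75, for *Ifit3* −0.37 to 6.21, for *Ifit3b* −1.26 to 5.86, for *Kit* −12.01 to 0.13, for *Cyp2e1* −0.65 to 6.15, for *B2m* −0.30 to 0.88, for *Mki67* −0.080 to 1.52 and for *Mybpc1* −0.70 to 3.43. limma-voom put *Acta1* at −0.29. The cause was not tested. With 2 libraries per group, changes of 1 on the log2 scale were mostly below detection, and genes at 3 counts or fewer have bounds or wide counting intervals in place of a fold.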
